A study of Mus musculus with 9 samples.

Results

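The genes described here are the colony-stimulating factors and their receptors, 9 genes of the 19505 represented on the arrays. They were chosen by gene symbol, with earlier results of these data known, and each was represented by 1 feature of the deposited table. The set holds 4 ligands, Csf1 (M-CSF), Csf2 (GM-CSF), Csf3 (G-CSF) and Il34, and 5 receptor chains, Csf1r, Csf2ra, Csf2rb, Csf3r and Il3ra. All 9 were found under the same symbol in the RefSeq table of GRCm38.p6.

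The samples were back skin of C57BL/6J mice aged 8 weeks, from which total RNA was labelled with biotin and hybridised to Affymetrix arrays. Both groups were treated daily for 7 days with 5% imiquimod cream after hair removal; imiquimod activates Toll-like receptor signalling and induces psoriasis-like dermatitis in mice. In the stretch group (n = 5, labelled IMQ+F) a plastic traction device glued to the skin had been elongated by 10 mm on the first day, and in the no-stretch group (n = 4, labelled IMQ+N) the skin was not stretched. No strain, allele or drug differed between the groups, and the labels do not say whether non-stretched skin carried the device or whether each sample was a separate mouse. The p-values therefore reflect only the scatter of these samples, some of which may be technical. No skin without imiquimod was analysed here, so the response of these genes to imiquimod itself was not measured.

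Colony-stimulating factors are secreted proteins that keep myeloid cells alive and drive their proliferation and maturation. G-CSF acts through Csf3r on neutrophils and their precursors. M-CSF and IL-34 are separate ligands of the tyrosine kinase receptor Csf1r on monocytes, macrophages and Langerhans cells, and in skin IL-34 made by keratinocytes maintains Langerhans cells. GM-CSF and IL-3 bind their own alpha chains, Csf2ra and Il3ra, which signal together with the common beta chain Csf2rb. Keratinocytes, fibroblasts, endothelial cells and activated leukocytes can release several of these factors during inflammation.

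Promoter windows of 250 bases before the annotated RefSeq start (GRCm38.p6) were read for Csf1, Csf2, Csf2ra, Csf3r and Il3ra. Those of Csf3r and Csf1 are shown because Csf3r had the largest difference of the 9 genes, and Csf1 was the member that varied most closely with it within the groups. The Csf3r window lies on chr4:126024409-126024658 (plus strand) and the Csf1 window on chr3:107760470-107760719 (minus strand). The Csf1 window directly precedes the annotated gene (chr3:107741048-107760469). The Csf3r window precedes the start that the RefSeq promoter table uses but lies within the annotated span of the gene (chr4:126023441-126044975), which holds further transcript starts upstream, so whether it is intronic in those transcripts was not assessed. Capitals mark matches to the motifs searched.
Csf3r: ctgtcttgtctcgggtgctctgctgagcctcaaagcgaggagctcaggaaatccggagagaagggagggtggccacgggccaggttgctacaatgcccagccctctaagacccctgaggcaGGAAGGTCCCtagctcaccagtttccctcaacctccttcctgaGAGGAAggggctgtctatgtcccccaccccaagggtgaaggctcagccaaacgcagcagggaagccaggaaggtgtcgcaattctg
Csf1: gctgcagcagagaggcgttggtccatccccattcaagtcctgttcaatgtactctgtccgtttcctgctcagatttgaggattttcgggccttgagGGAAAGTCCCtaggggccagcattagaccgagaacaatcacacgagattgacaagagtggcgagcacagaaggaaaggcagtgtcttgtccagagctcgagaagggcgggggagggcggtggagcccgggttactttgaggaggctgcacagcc

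Both windows held a match to the NF-kB consensus on the minus strand, from 129 to 120 bases before the start in Csf3r and from 154 to 145 bases before it in Csf1. This consensus occurred in 7.25% of 32851 windows of the same length. The Csf3r window also held the PU.1 core GAGGAA, from 86 to 81 bases before the start, which 23.25% of all windows held. The other motifs searched on both strands were C/EBP (TTNCNNAA, in 36.85% of windows), AP-1 (TGANTCA, 6.75%) and the cytokine element CK-1 (GAGATTCC, 0.755%). C/EBP letters were found in the windows of Csf2, Csf2ra and Il3ra, PU.1 letters also in that of Csf2ra, and AP-1 and CK-1 letters in none of the 5 windows, which says nothing of sequence outside them. The Il3ra window (chr14:14346245-14346494) also lies within the annotated span of its gene (chr14:14345912-14355493). The Csf2ra window (chr19:61228419-61228668) overlaps the end of its gene's span (chr19:61217191-61228461), and its matches fall in that overlap. The Csf2 window is set by the RefSeq start and may not hold the known proximal promoter of that gene, where a CK-1 element has been described. No match overlapped another, and a match is a run of letters, not a measured binding site.

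The arrays were alike in scale, with medians from 5.81 to 5.99 on the log2 scale, and precision was limited by their number, with a median standard error of 0.21 for the log2 change over all genes. Basal keratinocyte keratins were among the brightest signals on every array, Krt14 at 18.41 to 19.76 and Krt5 at 17.16 to 17.68. No-stretch replicate 3 correlated least with the other arrays (median r = 0.975 across genes, against 0.980 to 0.987 for the rest). It and stretch replicate 1 had the lowest array weights, 0.58 and 0.55, so results that rest on them are also given without them. In bulk skin a change in the number of cells of a type and a change in RNA per cell cannot be told apart.

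Stretch was compared with no stretch by limma's moderated test, adjusted by Benjamini-Hochberg over all 19505 genes at a threshold of 0.05. None of the 9 genes passed, where 0.246% of all genes did. The G-CSF pair had the largest differences: Csf3 was 2.0-fold and Csf3r 3.70-fold higher with stretch. The common beta chain Csf2rb was 1.67-fold higher and Il34 was 1.66-fold lower. These 4 genes were those with an unadjusted limma p under 0.05, a mark that 13.0% of all genes reached: the 3 higher stand beside 6.92% of all genes and the 1 lower beside 6.07%. The other 5 genes differed by 1.13-fold to 1.48-fold in either direction. The median log2 change was 0.46 over the 9 genes and -0.0034 over all genes.

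**Figure D1:**
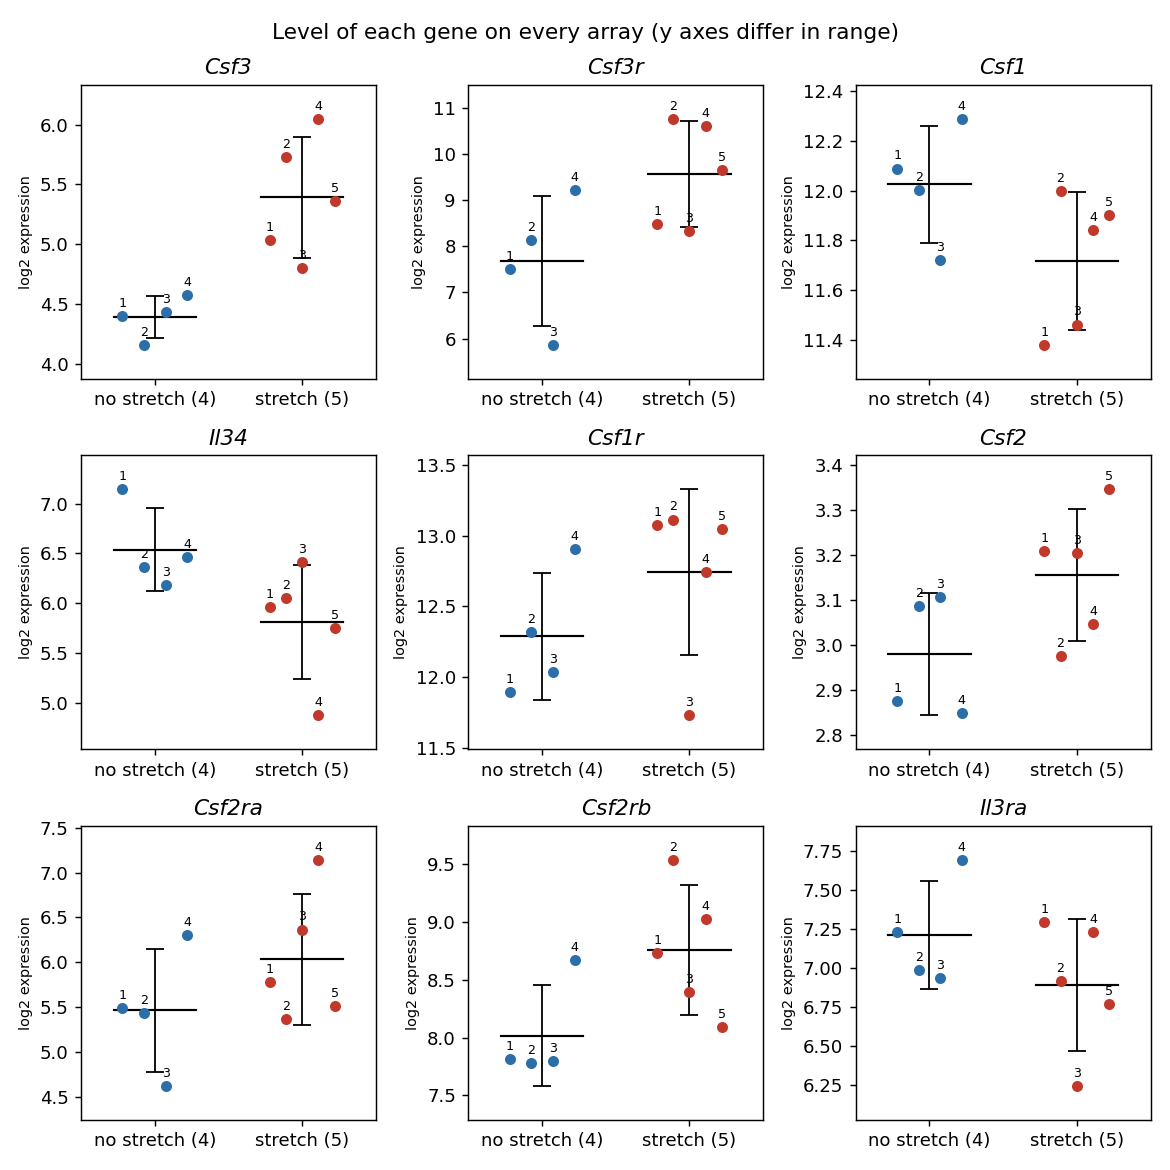
Log2 expression of each gene (y axis, with its own range in each panel) on the 4 non-stretched (blue) and 5 stretched (red) arrays. Numbers are replicate numbers, horizontal lines group means and bars 1 SD. Csf3 is the only panel in which the groups do not overlap, from 4.16 to 4.58 without stretch and from 4.80 to 6.05 with it.

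Among the ligands, Csf3 encodes G-CSF, which mobilises neutrophils and sustains their production. Its log2 level was 4.40, 4.16, 4.43 and 4.58 in no-stretch replicates 1 to 4, and 5.03, 5.73, 4.80, 6.05 and 5.36 in stretch replicates 1 to 5. The Csf3 signal stood at percentile 39.3 of all genes, and whether it was above background was not assessed. All 5 stretched arrays lay above all 4 non-stretched ones, a separation that 4.54% of all genes showed (2.38% in this direction). The means were 5.39 ± 0.51 (SD, n = 5) and 4.39 ± 0.17 (SD, n = 4), so the stretched samples were also the more scattered, with an SD ratio of 2.90 that was not tested. The log2 change was 1.00 (95% confidence interval 0.46 to 1.54), with limma adjusted p = 0.12 and an exact two-sided permutation p of 0.016, unadjusted, where the 126 splits of the arrays allow no p below 0.0079. In size this change exceeded that of 96.9% of genes. Without stretch replicate 3, the lowest of the stretched arrays, the change was 1.15 and passed (limma adjusted p = 0.047). In that fit 195 of all 19505 genes passed, against 48 with all arrays. Across all 19 alternatives computed for Csf3 its adjusted p lay between 0.047 and 0.31. Without stretch replicate 1 and no-stretch replicate 3 together the change was 1.10.

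Csf2 encodes GM-CSF, a product of activated lymphocytes and epithelium that acts on granulocytes, macrophages and dendritic cells. On the log2 scale it was at 2.88, 3.09, 3.11 and 2.85 without stretch, and 3.21, 2.98, 3.21, 3.05 and 3.35 with it. The groups overlapped, with 3 of 5 stretched arrays above the highest non-stretched one. Stretch minus no stretch was 0.18 in log2 (95% confidence interval -0.15 to 0.51, limma adjusted p = 0.66). The Csf2 signal stood at percentile 10.5 of all genes and its whole range over the 9 arrays was 0.50, narrower than that of nearly all genes (percentile 5.14). Whether this feature was above background was not assessed, and the deposited log2 scale understates changes of dim features, so the narrow interval is not evidence of a constant level.

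Csf1 encodes M-CSF, the growth factor of monocytes and tissue macrophages that stromal cells produce. It was bright, at percentile 92.4 of all genes. The 4 non-stretched samples were at log2 levels of 12.09, 12.00, 11.72 and 12.29, and the 5 stretched samples at 11.38, 12.00, 11.46, 11.84 and 11.90. Stretch replicates 1 and 3 lay below every non-stretched array and no stretched array lay above the highest of them. The mean difference was -0.31 in log2 (95% confidence interval -0.72 to 0.10, limma adjusted p = 0.53).

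Il34, the second ligand of Csf1r, was the ligand with the largest difference towards lower values. Log2 levels were 7.14, 6.37, 6.18 and 6.47 without stretch, and 5.96, 6.06, 6.41, 4.88 and 5.75 with it. Of the 5 stretched arrays, 4 lay below the lowest non-stretched array, and stretch replicate 3 lay within the non-stretched range. The means were 5.81 ± 0.57 (SD, n = 5) and 6.54 ± 0.42 (SD, n = 4). The log2 change was -0.73 (95% confidence interval -1.38 to -0.08), with limma adjusted p = 0.33 and an exact permutation p of 0.048, unadjusted. It was -0.49 without stretch replicate 4, the lowest array, and -0.88 without stretch replicate 3.

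**Figure D2:**
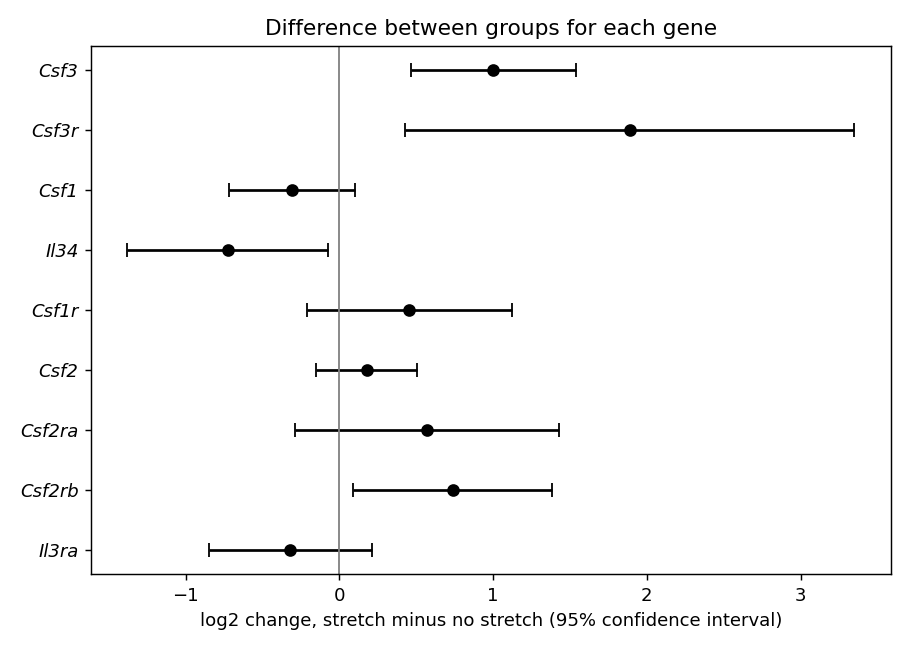
Log2 change of each gene, stretch minus no stretch (points), with the 95% confidence interval of the limma fit (bars). The intervals of Csf3, Csf3r, Csf2rb and Il34 leave out 0 before adjustment over all genes, and that of Csf3r is the widest, from 0.43 to 3.35.

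Among the receptors, Csf3r, the G-CSF receptor of neutrophils, had both the largest change and the widest scatter. It had log2 levels of 7.50, 8.13, 5.87 and 9.22 in no-stretch replicates 1 to 4, and 8.48, 10.76, 8.33, 10.60 and 9.66 in stretch replicates 1 to 5. Stretch replicates 2, 4 and 5 lay above every non-stretched array, while stretch replicates 1 and 3 lay below no-stretch replicate 4. The means were 9.57 ± 1.14 (SD, n = 5) and 7.68 ± 1.40 (SD, n = 4). They differed by 1.89 on the log2 scale (95% confidence interval 0.43 to 3.35). The change was larger in size than that of 99.5% of genes, and the range over the 9 arrays, 4.89, was at percentile 99.7. It did not pass (limma adjusted p = 0.25), and the exact permutation p was 0.063, unadjusted. No-stretch replicate 3, the array that stood apart, held the lowest level, and without it the change was 1.28 (limma adjusted p = 0.52).

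Neutrophil markers were set beside Csf3r. Of 16 measured markers 15 had higher means with stretch, none passed and 7 had an unadjusted limma p under 0.05. Over all genes 49.6% had higher means and 13.0% had such a p. The same shares stand beside the counts of every list below. The mean of the list was 8.37 to 9.56 on the stretched arrays and 7.23 to 8.02 on the non-stretched ones. The list means thus did not overlap although Csf3r did. Nor did the means of the lists of receptor signalling, inducing cytokines, fibroblasts and adipocytes, whereas those of the other lists below overlapped. On single arrays the neutrophil list and Csf3r could part. Relative to the no-stretch means, no-stretch replicate 4 was at 1.54 for Csf3r and 0.21 for the neutrophil list, and stretch replicate 1 at 0.80 and 1.27. Retnlg, a resistin-like protein of neutrophils, had a log2 change of 4.54, the stefin gene Stfa2l1 of 1.81 and the gelatinase gene Mmp9 of 1.74 (limma adjusted p = 0.081, 0.062 and 0.070). The 5 granule genes of neutrophil precursors on the list, named after their values were seen, had log2 changes of -0.39 (Mpo), 0.020 (Elane), 0.13 (Camp), 0.16 (Ltf) and 0.40 (Ngp). They were dim, at percentiles 10.0 to 28.8 of all genes, so small changes there are not evidence of a constant level. The part of neutrophil number in the Csf3r difference was not tested.

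**Figure D3:**
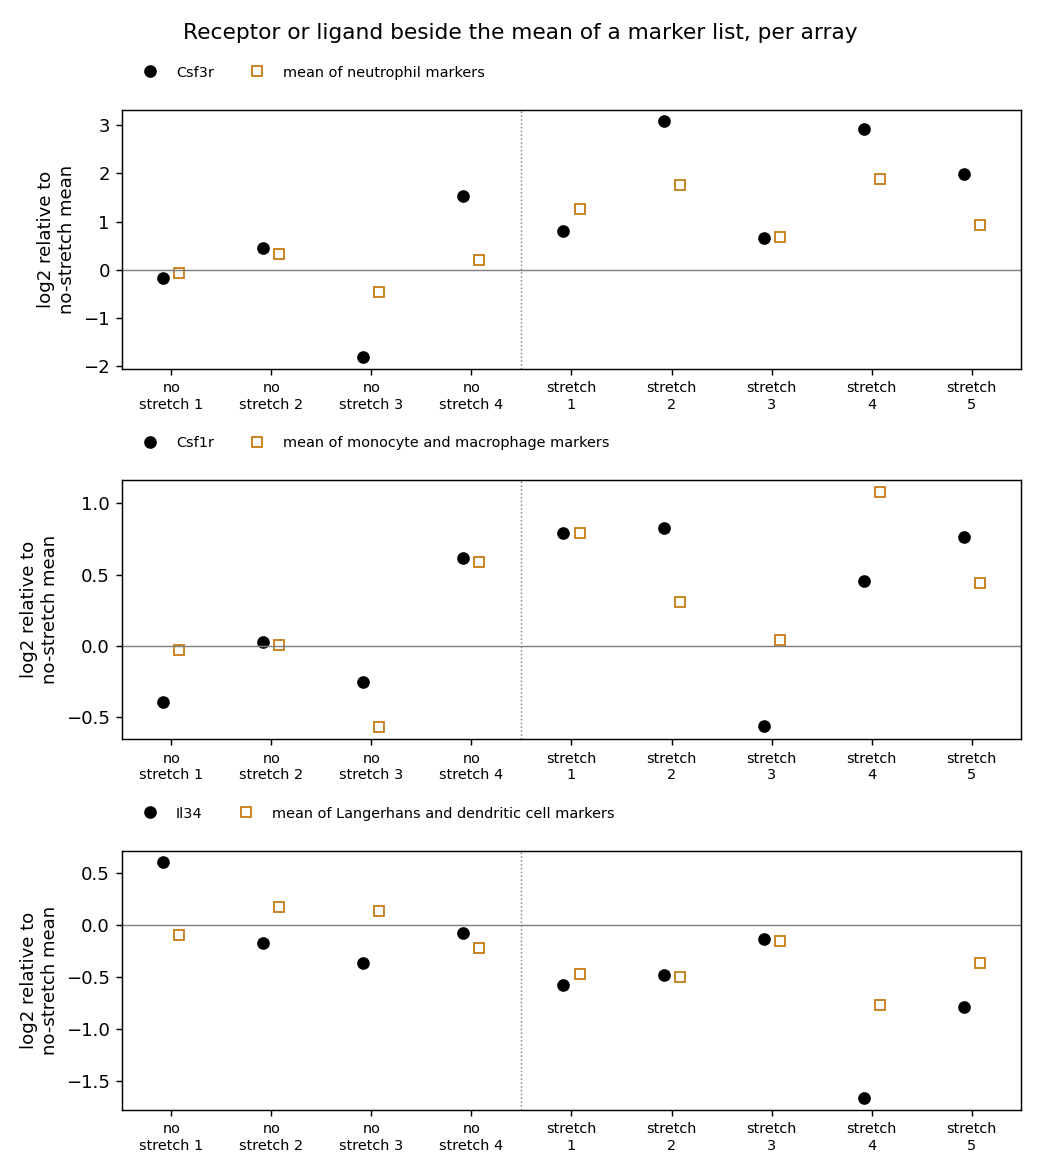
Log2 level on each array relative to the no-stretch mean (y axis) for Csf3r, Csf1r and Il34 (filled points), each beside the mean of a marker list (open squares); the dotted line parts no stretch from stretch. Csf3r was highest at 3.08 (stretch replicate 2) and lowest at -1.81 (no-stretch replicate 3), while the neutrophil list mean spanned 1.87 to -0.46.

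Csf1r, the receptor of M-CSF and IL-34, was bright, at percentile 94.5 of all genes. Its log2 level was 11.89, 12.32, 12.04 and 12.91 without stretch, and 13.08, 13.12, 11.73, 12.74 and 13.05 with it. In 4 of 5 stretched samples it lay between 12.74 and 13.12, but stretch replicate 3 held the lowest level of all 9 arrays. The log2 change was 0.46 (95% confidence interval -0.21 to 1.12, limma adjusted p = 0.56). Without stretch replicate 3 it was 0.71 (limma adjusted p = 0.19). Monocyte and macrophage markers overlapped between the groups as well, with list means of 10.59 to 11.63 with stretch and 9.97 to 11.14 without. Of 17 measured markers 14 were higher, none passed and 4 had an unadjusted limma p under 0.05. The lipopolysaccharide co-receptor Cd14 had a log2 change of 2.26, the scavenger receptor Msr1 of 1.66 and the haemoglobin scavenger receptor Cd163 of 0.85, with limma adjusted p = 0.13, 0.22 and 0.33. The part of macrophage number in the Csf1r values was not tested.

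The ligands and the receptor of this axis did not share a direction, since both Csf1 and Il34 had negative changes and Csf1r a positive one. Langerhans cells, which depend on IL-34, were represented by a joint list with dendritic cells. Of its 15 measured markers 11 were lower with stretch, none passed and 6 had an unadjusted limma p under 0.05. The list mean was 5.91 to 6.51 with stretch and 6.45 to 6.85 without. The Langerhans cell lectin Cd207 had a log2 change of -0.82, the adhesion molecule Epcam of -1.01, and the antigen-presenting molecules H2-Aa and H2-Eb1, of MHC class II, of -1.06 and -1.03 (limma adjusted p = 0.28, 0.22, 0.21 and 0.22). Cd207 was named after its values were seen. Stretch replicate 4 had the lowest Il34 and the lowest list mean of all arrays, and stretch replicate 3 the highest of both among the stretched ones. Non-stretched arrays could part: relative to the no-stretch means, replicate 1 was at 0.60 for Il34 and -0.09 for the list. No-stretch replicate 3 was at -0.36 for Il34 and 0.14 for the list. Keratinocyte markers had list means of 14.57 to 15.33 with stretch and 14.76 to 15.17 without, with 6 of 12 higher and none past the threshold. Their lowest mean of all 9 arrays was also in stretch replicate 4, the array of lowest Il34, while the other stretched arrays lay between 15.20 and 15.33. Dsg3, Sfn and Itga6, which serve keratinocyte adhesion and growth control, had log2 changes of 0.97, 0.69 and 0.77 (limma adjusted p = 0.22, 0.25 and 0.30). The part of keratinocyte or Langerhans cell number in the Il34 values was not tested.

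Csf2rb, the signalling chain shared by the receptors of GM-CSF, IL-3 and IL-5, was the most separated of the remaining receptors. Its log2 level was 7.82, 7.78, 7.80 and 8.67 without stretch, and 8.73, 9.53, 8.40, 9.02 and 8.09 with it. Every stretched array lay above no-stretch replicates 1 to 3, which were within 0.03 of each other in log2 level, and stretch replicates 3 and 5 lay below no-stretch replicate 4. The means were 8.75 ± 0.56 (SD, n = 5) and 8.02 ± 0.43 (SD, n = 4). They differed by 0.74 on the log2 scale (95% confidence interval 0.09 to 1.38). The limma adjusted p was 0.32 and the exact permutation p was 0.056, unadjusted. Across the fits that left out 1 array the change lay between 0.54 and 0.95.

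Csf2ra, the ligand-binding chain for GM-CSF, was at 5.49, 5.43, 4.62 and 6.31 in log2 level without stretch, and at 5.78, 5.37, 6.37, 7.14 and 5.51 with it. The groups overlapped widely, and stretch replicate 4 was the highest array. The mean log2 difference was 0.57 (95% confidence interval -0.29 to 1.43, limma adjusted p = 0.57). It was 0.29 without no-stretch replicate 3, the lowest array, and also 0.29 without stretch replicate 4. It was 0.85 without no-stretch replicate 4.

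Il3ra, the ligand-binding chain for IL-3 on basophils, mast cells and other myeloid cells, was the receptor chain with a negative change. The arrays gave log2 levels of 7.23, 6.98, 6.93 and 7.69 without stretch, and 7.29, 6.92, 6.25, 7.23 and 6.77 with it. Stretch replicates 2, 3 and 5 lay below every non-stretched array, though stretch replicate 2 by only 0.02. The log2 change was -0.32 (95% confidence interval -0.85 to 0.21, limma adjusted p = 0.61), and it was -0.16 without stretch replicate 3 or without no-stretch replicate 4. Markers of mast cells, basophils and eosinophils had a median log2 change of -0.0068, with 7 of 15 higher and none past the threshold. The mast cell genes Cpa3 and Mcpt4 had log2 changes of -1.35 and -0.91, and the histidine decarboxylase gene Hdc, which neutrophils and macrophages can also express, had 1.98 (limma adjusted p = 0.084, 0.27 and 0.19).

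**Figure D4:**
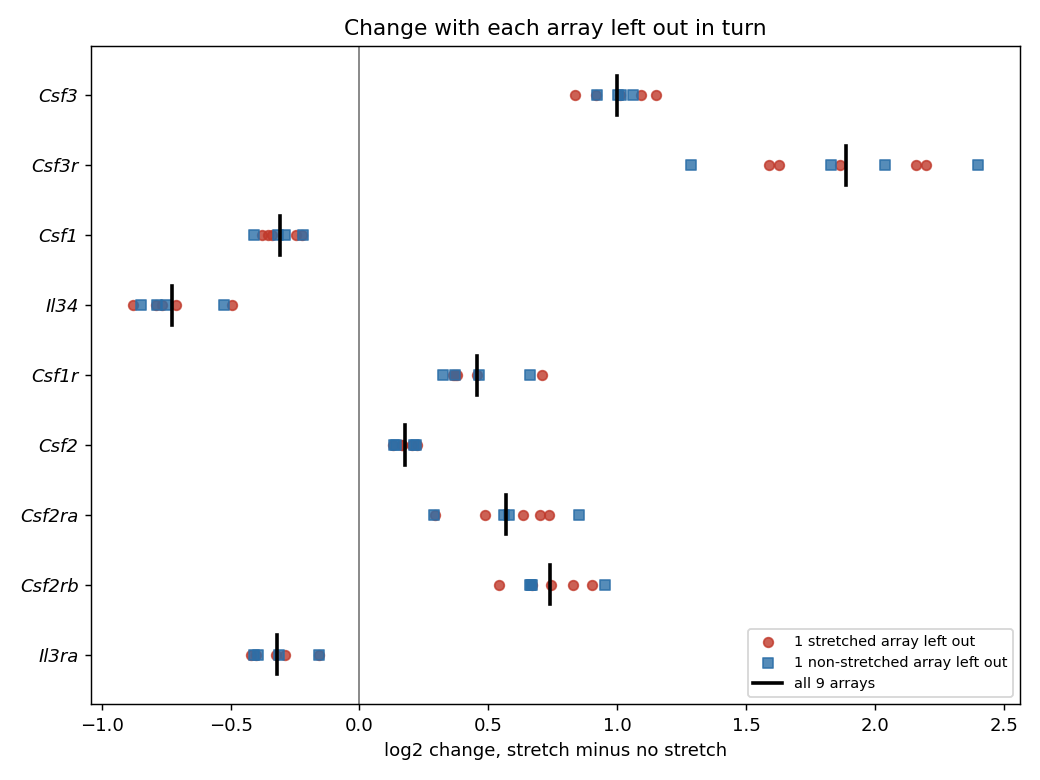
Log2 change of each gene, stretch minus no stretch (x axis), with all 9 arrays (black bars) and with 1 stretched (red circles) or 1 non-stretched array (blue squares) left out in turn. No gene changed sign; Csf3 stayed between 0.84 and 1.15, whereas Csf3r moved from 1.28 to 2.40.

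The genes were also set against each other within the groups, after each group's mean was subtracted. Of 36 pairs, 3 had an unadjusted exact permutation p under 0.05 (2880 permutations within the groups) and none passed after Benjamini-Hochberg adjustment. Csf1 and Csf3r varied together (Pearson r = 0.91, exact permutation p = 0.0073, adjusted 0.13; Spearman rho = 0.85, exact permutation p = 0.010, adjusted 0.19), although their mean changes with stretch had opposite signs. Without stretch replicates 1 and 3, the arrays farthest from the median of Csf1, r was 0.88. No-stretch replicate 3 and stretch replicate 1, the arrays of lowest weight, were both low in this pair, and without them r was 0.86 over 7 arrays. Csf2 and Csf2rb varied in opposite directions (Pearson r = -0.85, exact permutation p = 0.0028, adjusted 0.10; Spearman rho = -0.85, exact permutation p = 0.010, adjusted 0.19). Without the arrays farthest from the median of Csf2, stretch replicate 5 and no-stretch replicate 4, r was -0.71. Csf2 was dim, at percentile 10.5 of all genes, and whether its deviations in this pair exceed background was not assessed. Csf1r and Il3ra had Pearson r = 0.77 (exact permutation p = 0.042, adjusted 0.42) and Spearman rho = 0.73 (exact permutation p = 0.050, adjusted 0.36), with r = 0.60 without stretch replicate 3 and no-stretch replicate 1.

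**Figure D5:**
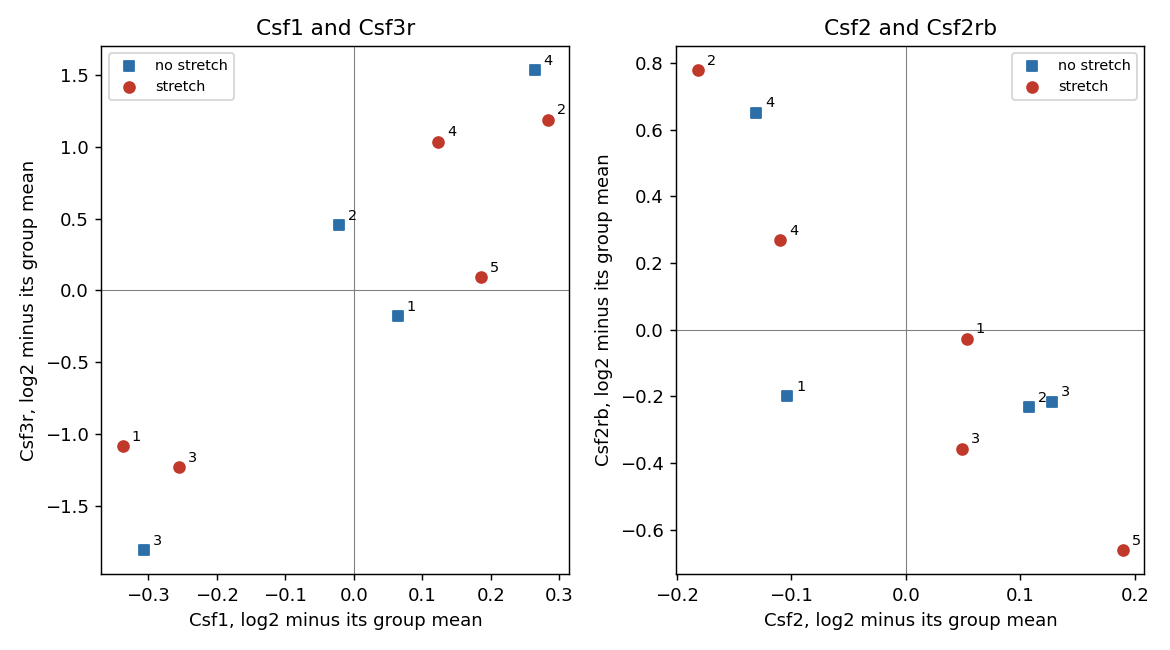
Log2 level minus the group mean for Csf1 against Csf3r (left) and Csf2 against Csf2rb (right), with non-stretched (blue squares) and stretched (red circles) arrays numbered by replicate. Stretch replicates 1 and 3 and no-stretch replicate 3 lie together at the low end of Csf1 and Csf3r, and the x axis of Csf2 spans less than its whole range of 0.50.

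Single arrays carried several genes at a time. No-stretch replicate 4 held the highest non-stretched level of 7 of the 9 genes, all but Csf2 and Il34. No-stretch replicate 3 held the lowest non-stretched level of 5, namely Csf1, Csf2ra, Csf3r, Il34 and Il3ra. Among the stretched arrays, replicate 2 was highest for Csf1, Csf1r, Csf2rb and Csf3r, and replicate 3 was lowest for Csf3, Csf1r, Csf3r and Il3ra.

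The genes most like each member over the 9 arrays, by Pearson r after the group means were subtracted, were taken from all other genes and are listed as a description. For Csf3 they were Cacna1d and Scgb1b19 (r = 0.96 for each), and for Csf3r Calm3 (0.98) and Anxa6 (0.97). For Csf1 they were Pfkl (0.99) and Ccrl2 (0.98), for Csf1r Best2 (0.97) and Sec22c (0.96), and for Il34 Trpv6 (0.96) and Zfp949 (0.94). For Csf2 they were Fcrls (0.95) and Htr1a (0.94), and for Csf2ra Ogfrl1 (0.99) and Cdh23 (0.98). For Csf2rb they were Gnat2 (0.98) and Adh6-ps1 (0.96), and for Il3ra St3gal4 and Dennd5a (0.97 for each). These r values are the highest found among all other genes over only 9 arrays. None was tested, so a high r here does not by itself show a relation.

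Genes of receptor signalling were listed together with the cytokines Il3 and Il5 and a receptor chain of IL-5. Of the 25 measured genes of this list 20 were higher with stretch, none passed and 7 had an unadjusted limma p under 0.05. Of all genes 49.6% were higher and 13.0% had such a p. Their median log2 change was 0.19, beside -0.0034 over all genes. Tyrobp, an adaptor that couples myeloid receptors to the kinase Syk, had a log2 change of 1.80 (limma adjusted p = 0.055). It did not overlap between the groups, a separation that 4.54% of all genes showed (2.38% in this direction). The feedback inhibitor Socs3, which restrains signalling of the G-CSF receptor, had a log2 change of 1.53 and the Src-family kinase Fgr of 1.35 (limma adjusted p = 0.16 and 0.14). The transcription factor Stat3, which the G-CSF receptor activates, had a log2 change of -0.014. Stat5a and Stat5b, used by the beta chain receptors, had 0.23 and 0.10. The kinase genes Jak1, Jak2 and Tyk2 had 0.13, 0.89 and -0.22 (limma adjusted p = 0.79, 0.18 and 0.67). Of these, Jak2 also did not overlap between the groups. The cytokines Il3 and Il5 had changes of -0.096 and 0.14. The values of Stat3, Stat5a, Stat5b, Jak1, Jak2, Tyk2, Il3 and Il5 are given for their roles and were seen before they were named.

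Transcription factors of the myeloid lineages were mixed, with 8 of 12 higher, a median log2 change of 0.17, none past the threshold and 3 with an unadjusted limma p under 0.05. Cebpb, which emergency granulopoiesis requires, had a log2 change of 0.82, Id2, needed for Langerhans cells, 0.80 and Cebpd 0.75 (limma adjusted p = 0.20, 0.38 and 0.28). Cytokines and Toll-like receptors known to induce colony-stimulating factors were higher in 12 of 14, with a median of 0.44, none past the threshold and 5 with an unadjusted limma p under 0.05. Il1b had a log2 change of 3.71, the alarmin Il33 1.75 and Ifng 1.03 (limma adjusted p = 0.070, 0.084 and 0.22).

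Markers of other cell types of the skin were counted beside these genes. Fibroblast markers, from a cell type that can make M-CSF and G-CSF, were lower in 8 of 8, with list means of 14.16 to 14.49 with stretch and 15.07 to 15.38 without. Dpt (dermatopontin) was the 1 of them past the threshold, with a log2 change of -2.30 (limma adjusted p = 0.025). Adipocyte markers were lower in 8 of 9, with none past the threshold (list means 8.96 to 10.05 against 10.16 to 10.75), among them Plin1 at -1.51, Adipoq at -1.75 and Lpl at -0.94 in log2 change (limma adjusted p = 0.053, 0.076 and 0.14). T cell markers were lower in 9 of 9, with list means of 4.95 to 5.52 against 5.41 to 5.95 and none past the threshold. Cd4, Zap70 and Icos had log2 changes of -0.90, -0.31 and -0.75 (limma adjusted p = 0.21, 0.42 and 0.45). Endothelial markers had a median log2 change of 0.25 and skeletal muscle markers of -0.021, with overlapping list means (7.36 to 8.37 against 7.24 to 7.91, and 13.92 to 15.90 against 14.80 to 15.45) and none past the threshold. Among endothelial genes the angiopoietin receptor Tek had a log2 change of -0.84, Kdr of 0.78 and Cdh5 of 0.77 (limma adjusted p = 0.078, 0.33 and 0.39). Among muscle genes Actn3 had 0.99, Ckm -0.81 and Mylpf 0.70 (limma adjusted p = 0.27, 0.38 and 0.41). The part of any of these cell types in the values of the colony-stimulating factors was not tested.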

How the data were processed

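Total RNA (6 ug) was made into biotinylated cRNA for Affymetrix arrays, per the labels' protocols. The authors deposited log2 values for 22206 features on 9 arrays; the submitters' processing notes name RMA and the Transcriptome Analysis Console, without versions or roles. Genome build and filters: not given in the sources used here. Such log2 values are compressed near the floor, which understates changes of dim genes; no detection call or scanner intensity was used.

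Samples were grouped by title. The platform table named 19572 features by 1 symbol, and 2634 were unnamed here; the brightest feature stood for each of 19505 genes. The members and lists were chosen with earlier results of these data known. Differences (stretch minus no stretch) were fitted with limma 3.58.1 (lmFit, eBayes; R 4.3.3), two-sided and without covariates. Each member was also tested by exact permutation over 126 splits. Pairs of members were tested by exact permutation within groups (Python 3.11.15). Of 192 entries in 13 gene lists, 171 were measured; the others were not analysed here. Named genes were the members and the 2 genes most like each member. Of each list, those past the threshold or else the 3 of smallest p were named. Krt14 and Krt5, which check the tissue, lie outside this rule. So do Cd207, Mpo, Elane, Camp, Ltf, Ngp, Stat3, Stat5a, Stat5b, Jak1, Jak2, Tyk2, Il3 and Il5. The 2 omissions of pairs of arrays from the correlations were chosen after seeing the data. Alternatives covered scaling, filters on dim genes, features per gene, weighting of arrays, the variance model, a block for the replicate number, the threshold and leaving out arrays. Tests were checked on simulated data.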

Additional observations from a re-analysis of the deposited data

Results flagged for a closer look

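Among 18 sets of values (9 genes in 2 groups), 2 held an array far from the others of its group by Dixon's test at the 95% level, where chance flags about 1 in 20. Csf1r in stretch replicate 3 was at 11.73 in log2 level, while the other stretched arrays lay between 12.74 and 13.12. Csf2rb in no-stretch replicate 4 was at 8.67, while the other non-stretched arrays lay between 7.78 and 7.82. The same array held the highest non-stretched level of 7 of the 9 genes. Without it the log2 change of Csf2rb was 0.95, and without stretch replicate 3 that of Csf1r was 0.71; neither passed (limma adjusted p = 0.20 and 0.19).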

How the results depend on the processing

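None of the 9 genes passed with all arrays, and none changed sign under any alternative run. Leaving out 1 array at a time gave 0 or 1 of the 9 past the threshold, the 1 being Csf3 without stretch replicate 3. Of all genes, between 2 and 195 passed in these fits (48 with all arrays), and the 195 were also without stretch replicate 3. The median log2 change of the 9 genes lay between 0.29 and 0.66 in these fits. It was 0.074 with the dimmer genes left out, a filter that also removed Csf2, Csf3 and Csf2ra. All genes past the threshold numbered 105 and 103 under the milder and the stricter filter on dim genes, 157 with array weights, 15 without stretch replicate 1 and no-stretch replicate 3 together, and 211 at an adjusted p of 0.1, where none of the 9 passed either. With the replicate number as a block 221 genes passed, and 1 of the 9, Csf3r (log2 change 1.86, limma adjusted p = 0.034). Stretch replicate 5 lacks a non-stretched array of its number, so it adds nothing to the changes in this fit. Without that array and without the block the change of Csf3r was also 1.86 (limma adjusted p = 0.32). The deviations of same-numbered arrays correlated at -0.062, -0.018, 0.064 and 0.34 for numbers 1 to 4. Number 4 alone correlated best with its own number. So few values cannot settle whether the numbers pair the samples. The array signal limits what can be said of Csf2, the dimmest of the 9.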
